A study of Arabidopsis thaliana with 12 samples.

Results

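HIS1-3 and HTB11 are 2 histone genes of Arabidopsis thaliana, whose transcripts were followed here in roots of wild-type and mutant plants with and without cold. HIS1-3 (AT2G18050) encodes a linker histone and HTB11 (AT3G46030) a histone H2B. The probe-to-gene table of the Affymetrix ATH1 array assigns 1 probe set to each of them alone, 265817_at to HIS1-3 and 252560_at to HTB11. They are 2 of 13356 genes with a probe set of their own. Both were chosen by measured values of these same arrays, HIS1-3 for its fall into the dim range in the cold and HTB11 for its high level in the mutant at 23 °C, with results of all 4 groups known. Values that rest on those differences are therefore described and not tested.

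The study compared Col-0, the wild type, with ozs3 (overly zinc sensitive 3), a mutant in the Col-0 background. Plants 4 weeks old had grown hydroponically at 23 °C in short days (8 h light). Controls stayed at that temperature, and treated plants spent 24 h at 4 °C. Roots gave 3 biological replicates, on 1 array each, in each of the 4 groups: Col-0 at 23 °C, Col-0 at 4 °C, ozs3 at 23 °C and ozs3 at 4 °C. The labels do not name the mutated gene or say whether a replicate pooled several plants, and p-values measure only the spread between these replicates.

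In chromatin, DNA is wound around an octamer of the core histones H2A, H2B, H3 and H4. A linker histone (H1) binds where the DNA enters and leaves this particle and favours a more compact fibre. Besides the main linker histones H1.1 and H1.2, Arabidopsis has a shorter variant, HIS1-3 (also called H1.3), known for its induction by drought, abscisic acid and low light and for its presence in guard cells of leaves. H2B is encoded by a family of genes with very similar proteins, and most core histones are made when DNA is replicated.

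Levels are log2 intensities, on which a difference of 1 is a doubling, with the SD of the 3 arrays of a group. Differences are on the same scale, with the moderated standard error (SE) of a limma fit. Adjusted p-values come from that fit after Benjamini-Hochberg correction over 22746 probe sets, and "called" means an adjusted p under 0.05. A mean at or below 5 was treated as dim, as for 28.3% of probe sets. Arrays of the same group had a Pearson's r of 0.994 to 0.997 over these probe sets. Group means of PYK10, an abundant root beta-glucosidase, lay between 13.18 and 13.58, and the Calvin cycle genes PRK and SBPASE, markers of leaves, were dim in every group. The leaf marker RCA was not dim, with group means between 6.66 and 7.28. In bulk RNA, fewer cells of a type and less RNA per cell cannot be told apart.

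HIS1-3 was bright in control roots and dim after cold in both genotypes. In Col-0 its level was 7.94, 9.04 and 8.49 in the 3 arrays at 23 °C and 4.09, 4.43 and 4.51 at 4 °C. In ozs3 its level was 6.91, 7.79 and 7.89 at 23 °C and 4.15, 3.86 and 4.24 at 4 °C. Every cold array lay under the dim limit and every control array above it.

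**Figure D1:**
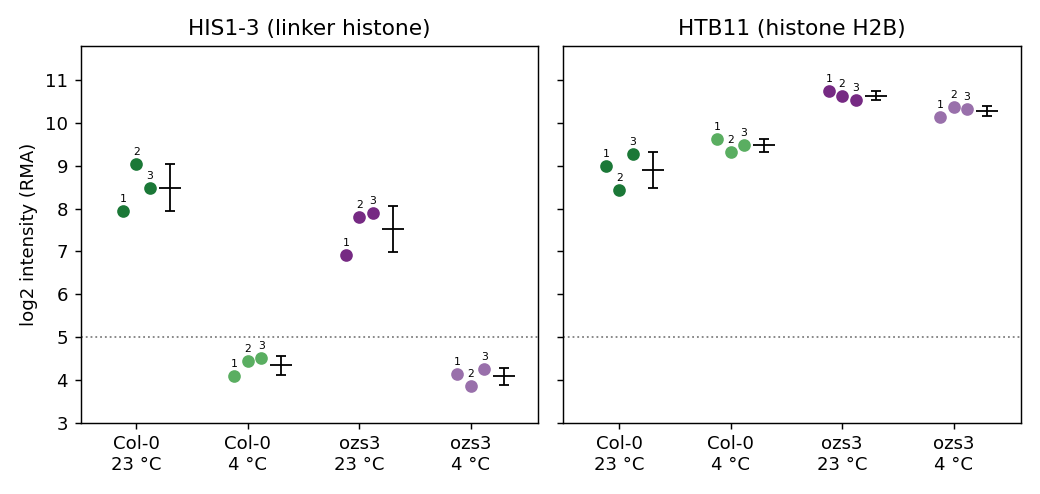
Log2 intensity of HIS1-3 and HTB11 in each array (points, numbered by replicate), by genotype and temperature, with the mean and SD of 3 arrays (black) and the dim limit of 5 (dotted). HIS1-3 lies between 6.91 and 9.04 at 23 °C and between 3.86 and 4.51 at 4 °C, and HTB11 is highest in ozs3 at 23 °C and lowest in Col-0 at 23 °C.

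The order of the HIS1-3 levels was Col-0 at 23 °C (8.49 ± 0.55), ozs3 at 23 °C (7.53 ± 0.54), Col-0 at 4 °C (4.34 ± 0.23) and ozs3 at 4 °C (4.08 ± 0.20). The cold groups overlapped each other, and the control groups were apart only by the gap between 7.89 and 7.94. In Col-0 the cold difference was -4.15 ± 0.27, 17.7-fold lower in intensity, and it was the lowest of the 22746 probe sets. In ozs3 it was -3.45 ± 0.27, 10.9-fold lower, and ranked 3 from the lowest. Both may be understated because the cold means are dim, which was not tested. All cold arrays lay below all control arrays for 27.5% of probe sets in Col-0 and 28.5% in ozs3, and 23.5% and 26.2% were called lower.

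Between same-numbered arrays the cold difference of HIS1-3 was -3.86, -4.61 and -3.97 in Col-0 and, where equal numbers were not taken as pairs, -2.77, -3.93 and -3.65 in ozs3. Its spread between replicates was wide at 23 °C, with an SD of 0.548 in Col-0 and 0.538 in ozs3, where the median SD over all probe sets was 0.113 and 0.101. At 4 °C its SD was 0.226 and 0.196, beside medians of 0.108 and 0.124.

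The genotype comparisons ask whether the mutant carried a different level of this linker histone. The comparison at 23 °C shares arrays with the cold comparisons that picked HIS1-3, and its values were known when the gene was chosen. Its p-values are therefore not independent of that choice. At 23 °C the difference of ozs3 minus Col-0 was -0.96 ± 0.27 (95% interval -1.53 to -0.381), or 1.94-fold lower, and just missed the threshold (limma adjusted p = 0.0505, with 6.34% of probe sets called). Every ozs3 array lay below every Col-0 array, as for 13.4% of probe sets.

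Replicate 1 was the lowest array of both genotypes at 23 °C, and between same-numbered arrays the difference was -1.03, -1.24 and -0.598. Same-numbered arrays deviated together in this comparison, and with the replicate number as a block the difference was called (limma adjusted p = 0.0094). Single arrays also decided the call. The difference was -1.23 without Col-0 replicate 1 at 23 °C (limma adjusted p = 0.0181) and -1.14 without ozs3 replicate 3 at 23 °C (limma adjusted p = 0.0391), both called. It was -0.648 without ozs3 replicate 1 at 23 °C (limma adjusted p = 0.2), not called.

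At 4 °C the difference of HIS1-3 between genotypes was -0.26 ± 0.27 (95% interval -0.834 to 0.319). The groups overlapped and both means were dim, which is the level that picked the gene, so no test is given. It was -0.148 without ozs3 replicate 2 at 4 °C. The interaction, the cold difference in ozs3 minus that in Col-0, was 0.70 ± 0.38 (95% interval -0.116 to 1.52). It too rests on the dim cold arrays and on the gap at 23 °C, and is given without a test. It moved to 0.39 without ozs3 replicate 1 at 23 °C and to 0.425 without Col-0 replicate 2 at 23 °C.

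The main linker histone genes H1.1 and H1.2 also fell in the cold. H1.1 had a level of 11.25 ± 0.029 in Col-0 at 23 °C and 9.91 ± 0.12 at 4 °C, and it fell by 1.34 ± 0.084 (limma adjusted p = 4.15e-08). A difference at least as low was found for 1.97% of probe sets. In ozs3 H1.1 fell by 1.08 ± 0.084 (limma adjusted p = 1.67e-07), a size reached by 5.26%. H1.2 fell by 0.89 ± 0.078 in Col-0 (limma adjusted p = 6.5e-07) and by 0.52 ± 0.078 in ozs3 (limma adjusted p = 7e-05), sizes reached by 6.22% and 16.9%. HIS1-3 was picked for its fall in the cold, so whether that exceeded theirs was not tested.

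Between genotypes both main genes were higher in ozs3 at 4 °C, where 6.42% of probe sets were called higher. The difference was 0.46 ± 0.084 for H1.1 (limma adjusted p = 0.00277) and 0.30 ± 0.078 for H1.2 (limma adjusted p = 0.0181). The H1.2 call ended without Col-0 replicate 2 at 4 °C (limma adjusted p = 0.063) or ozs3 replicate 3 at 4 °C (limma adjusted p = 0.0543). At 23 °C neither was called, at 0.19 ± 0.084 for H1.1 (limma adjusted p = 0.208) and -0.069 ± 0.078 for H1.2 (limma adjusted p = 0.688).

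**Figure D2:**
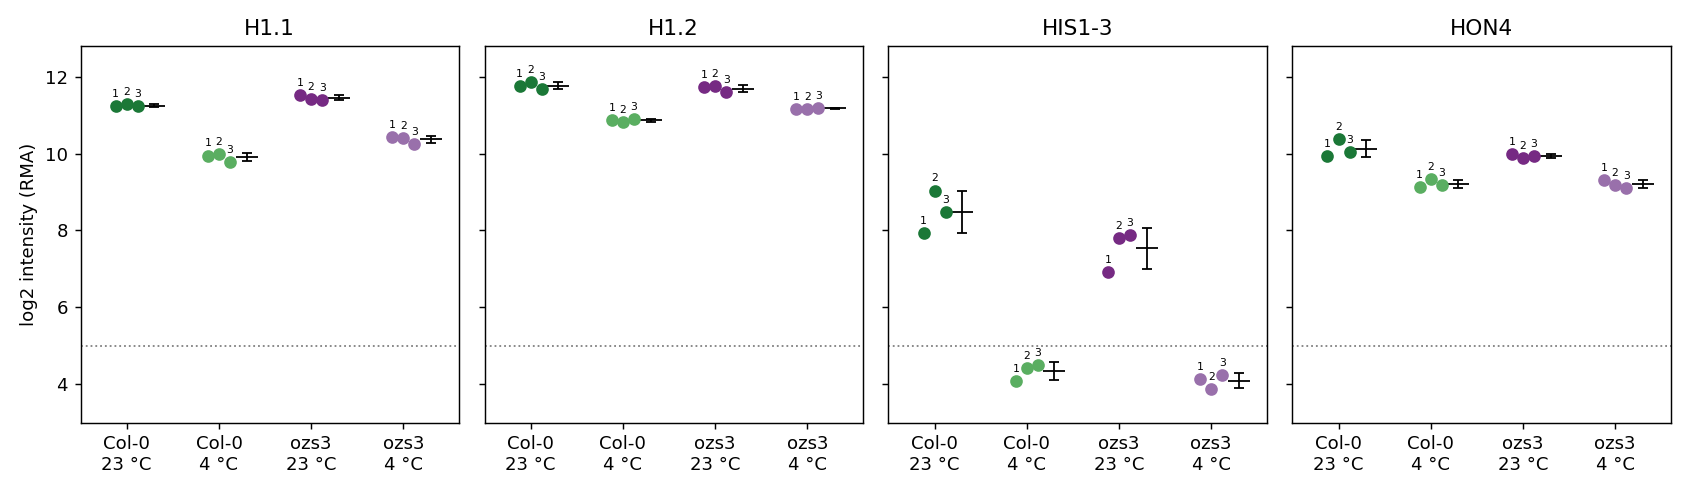
Log2 intensity of the linker histone genes H1.1, H1.2 and HIS1-3 and of the related gene HON4 in each array (points, numbered by replicate), with the mean and SD of 3 arrays (black) and the dim limit of 5 (dotted). All 4 genes are lower at 4 °C in both genotypes and HIS1-3 crosses the dim limit; levels of different probe sets are not comparable.

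HON4, whose protein has a domain like that of linker histones, fell by 0.91 ± 0.11 in Col-0 (limma adjusted p = 1.06e-05) and by 0.74 ± 0.11 in ozs3 (limma adjusted p = 6e-05). Between genotypes it was at -0.18 ± 0.11 at 23 °C (limma adjusted p = 0.392). HON4 was added to the fixed lists after the annotation was read.

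HIS1-3 is known as a gene of the dehydration and abscisic acid response, and the 3 measured genes listed for that response were higher in the cold where HIS1-3 was lower. Whether the response itself was active was not tested. Of 21 listed genes 3 had a probe set of their own, and all 3 rose in both genotypes, where 20.4% of probe sets were called higher in Col-0 and 24.9% in ozs3. LEA4-5, which encodes a late embryogenesis abundant protein, rose by 2.86 ± 0.21 in Col-0 (limma adjusted p = 1.45e-07) and by 3.87 ± 0.21 in ozs3 (limma adjusted p = 8.37e-09). The dehydrin gene LTI30 rose by 3.92 ± 0.40 and 2.34 ± 0.40 (limma adjusted p = 2.74e-06 and 0.000226). COR47, another dehydrin gene, rose by 1.82 ± 0.15 and 1.64 ± 0.15 (limma adjusted p = 5.01e-07 and 9.63e-07). The median of the 3 differences was 2.86 in Col-0 and 2.34 in ozs3, beside -0.0033 and 0.046 over all probe sets.

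Between genotypes 1 of these 3 genes was called at each temperature, where 3.17% of probe sets were called higher in ozs3 at 23 °C and 6.42% at 4 °C. LTI30 was higher in ozs3 at 23 °C by 1.66 ± 0.40 (limma adjusted p = 0.0255), a call that ended in 3 of 12 fits that left out 1 array (adjusted p up to 0.113, without Col-0 replicate 2 at 23 °C). Its difference ran from 1.09 without ozs3 replicate 3 at 23 °C to 2.18 in these fits. The call also ended with a robust prior (limma adjusted p = 0.064), with only the arrays compared (0.0935) and with array weights (1.15, limma adjusted p = 0.066). LEA4-5 was higher in ozs3 at 4 °C by 0.80 ± 0.21 (limma adjusted p = 0.0205), a call that ended in 4 of 12 fits that left out 1 array (adjusted p up to 0.0874).

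Some markers of leaf and root cells were called lower in the cold, as were 23.5% of all probe sets in Col-0 and 26.2% in ozs3. RCA (Rubisco activase), 1 of 3 measured leaf markers, fell by 0.62 ± 0.17 in Col-0 (limma adjusted p = 0.00854, and -0.374 without Col-0 replicate 2 at 23 °C) and was at -0.092 ± 0.17 in ozs3 (limma adjusted p = 0.677). The summed linear intensity of the leaf markers ran from 164 to 262 in Col-0 at 23 °C, 126 to 155 in Col-0 at 4 °C, 153 to 173 in ozs3 at 23 °C and 147 to 168 in ozs3 at 4 °C. Of 4 root markers, the root hair genes EXPA18 (an expansin) and XTH26 (a xyloglucan endotransglucosylase) fell in both genotypes. EXPA7, another root hair expansin gene, was at -0.10 ± 0.18 in Col-0 and 0.43 ± 0.18 in ozs3 (limma adjusted p = 0.702 and 0.0568). PYK10 was at 0.38 ± 0.17 and -0.26 ± 0.17 (limma adjusted p = 0.081 and 0.204). With the replicate block EXPA7 was called higher in ozs3 (limma adjusted p = 0.000498) and PYK10 higher in Col-0 (limma adjusted p = 0.0315). Equal numbers were not taken as pairs for the cold in ozs3, so the block is no firm basis for the EXPA7 call. EXPA18 fell by 0.92 ± 0.16 in Col-0 and 0.65 ± 0.16 in ozs3 (limma adjusted p = 0.000349 and 0.00432). XTH26 fell by 0.81 ± 0.26 and 1.83 ± 0.26 (limma adjusted p = 0.0218 and 4.54e-05), the first of which lost its call in 3 of 12 fits, those that left out replicates 1 and 3 of the Col-0 controls and replicate 2 of the cold Col-0 arrays (limma adjusted p = 0.0609, 0.0665 and 0.11). The summed root markers ran from 10882 to 11352, 12213 to 14875, 10947 to 13537 and 8219 to 13208 in the same order of groups. The part of such cells in the HIS1-3 difference was not tested.

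The genes most like HIS1-3 over the 12 arrays, by Pearson's r among 1670 genes with an SD over arrays of at least 0.5, were AT2G01100 and AT3G07870 (r = 0.993 each), AT1G76460 (r = 0.992), and AT4G13530 and AT5G66240 (r = 0.991 each). The arrays share the split by temperature, and 621 of the 1670 genes (37.2%) had r above 0.9 with HIS1-3, so likeness of this size was common. These 5 genes had cold differences between -1.78 (AT1G76460) and -1.20 (AT5G66240) in Col-0, smaller than that of HIS1-3 in value.

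The chromosomal neighbours of HIS1-3 did not move as a block. Of the 50 nearest named genes, 25 on each side in annotation order, 9 were called lower and 9 higher in the cold in Col-0 (36.0%, beside 43.9% of all probe sets), with a median difference of 0.025. In ozs3 10 were called lower and 14 higher (48.0%, beside 51.1%). At 23 °C 1 of the 50 (2.0%) was called between genotypes (2 with the replicate block), AT2G17850 (-0.69 ± 0.19, limma adjusted p = 0.0471). That call ended in 8 of 12 fits that left out 1 array (adjusted p up to 0.136).

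HTB11 was bright in every group and separated by genotype at both temperatures. At 23 °C its level was 8.99, 8.44 and 9.28 in the 3 Col-0 arrays and 10.74, 10.63 and 10.54 in the 3 ozs3 arrays. At 4 °C its level was 9.64, 9.33 and 9.48 in Col-0 and 10.14, 10.38 and 10.32 in ozs3. Every ozs3 array, warm or cold, lay above every Col-0 array.

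The order of the HTB11 levels was ozs3 at 23 °C (10.64 ± 0.098), ozs3 at 4 °C (10.28 ± 0.12), Col-0 at 4 °C (9.48 ± 0.15) and Col-0 at 23 °C (8.91 ± 0.43). No neighbours in this order overlapped, although the Col-0 groups were apart only by the gap between 9.28 and 9.33, and all cold arrays lay above all control arrays in Col-0 for 24.6% of probe sets. At 23 °C the difference of ozs3 minus Col-0 was 1.73 ± 0.17, 3.32-fold higher, and ranked 4 from the highest in the comparison that picked the gene, where 3.17% of probe sets were called higher and 12.6% had all ozs3 arrays above all Col-0 arrays.

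At 4 °C the level of HTB11 in ozs3 exceeded that in Col-0 by 0.80 ± 0.17 (95% interval 0.442 to 1.15), or 1.74-fold. The gene was chosen with its values in all 4 groups known, so this is a description, with no test. All ozs3 arrays lay above all Col-0 arrays, as for 15.5% of probe sets, and a difference at least as high was found for 0.813%. Between same-numbered arrays it was 0.506, 1.05 and 0.835, and it ran from 0.721 to 0.875 with 1 array left out.

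The cold difference of HTB11 had opposite signs in the genotypes. In Col-0 it was 0.58 ± 0.17, and between same-numbered arrays 0.645, 0.888 and 0.197. In ozs3 it was -0.36 ± 0.17, and between same-numbered arrays, which were not taken as pairs there, -0.595, -0.251 and -0.226. The interaction was accordingly -0.93 ± 0.23, a smaller gap between genotypes at 4 °C than at 23 °C. These 3 values use the arrays at 23 °C that picked HTB11, so they are given without a test. Col-0 replicate 2 at 23 °C was the lowest array, and without it the cold difference in Col-0 was 0.345 and the gap between genotypes at 23 °C was 1.5.

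The other H2B genes stand beside HTB11. Of 10 others listed, 8 had a probe set of their own, and none was called higher in ozs3 at either temperature (limma), nor at an unadjusted p under 0.05. Of all probe sets 3.17% were called higher at 23 °C and 6.42% at 4 °C, so none among 8 genes is near those shares. HTB1 was called lower, as were 3.17% of all probe sets at 23 °C. Its level at 23 °C was 9.30 ± 0.070 in Col-0 and 8.74 ± 0.061 in ozs3, a difference of -0.56 ± 0.085 (limma adjusted p = 0.00158), and at 4 °C the difference was -0.68 ± 0.085 (limma adjusted p = 0.000228), where 8.2% of probe sets were called lower. The other 7 ranged from -0.15 (HTB7) to 0.098 (HTB2) at 23 °C and from -0.31 (HTB5) to 0.14 (HTB3) at 4 °C. Of these, HTB7, HTB8 and HTB10 lay near the dim limit. The median over the 8 genes was -0.0083 at 23 °C and -0.025 at 4 °C, beside -0.0097 and 0.022 over all probe sets.

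**Figure D3:**
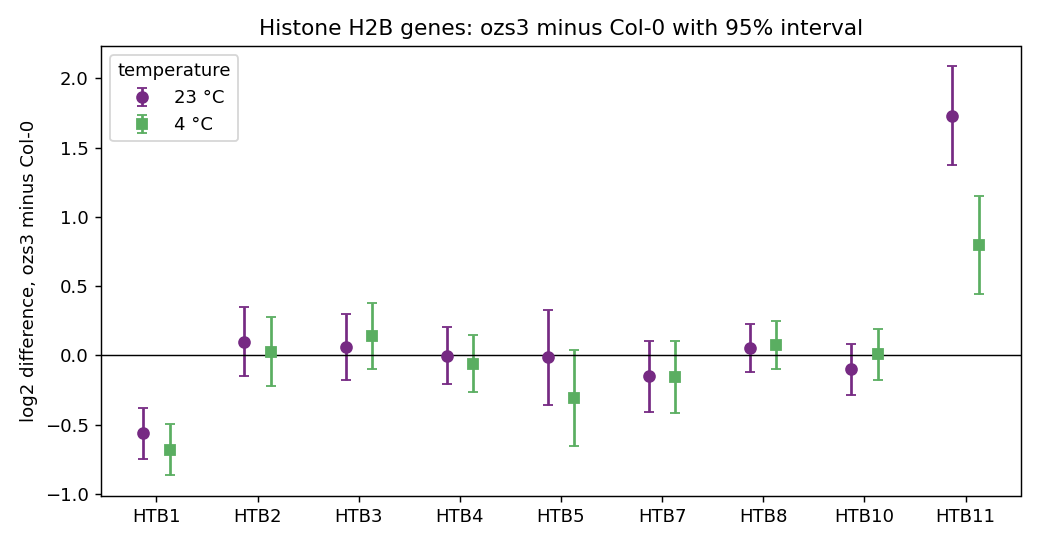
Log2 difference of ozs3 minus Col-0 at 23 °C and at 4 °C for the 9 H2B genes with a probe set of their own, with 95% intervals from limma. HTB11 is higher in ozs3 (1.73 and 0.80), HTB1 lower (-0.56 and -0.68), and the other 7 lie between -0.31 and 0.14.

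In the cold the other H2B genes split. Of the 8 measured, 1 was called higher and 2 lower in Col-0, beside 20.4% and 23.5% of all probe sets. In ozs3 1 was called higher and 4 lower, beside 24.9% and 26.2%. HTB1 rose by 0.82 ± 0.085 in Col-0 (limma adjusted p = 3.29e-06) and by 0.70 ± 0.085 in ozs3 (limma adjusted p = 1.11e-05). HTB4 fell by 0.51 ± 0.096 and 0.57 ± 0.096 (limma adjusted p = 0.000526 and 0.000188), and HTB5 fell by 0.98 ± 0.16 and 1.27 ± 0.16 (limma adjusted p = 0.000189 and 1.52e-05). HTB2 and HTB7 were called lower in ozs3, at -0.30 ± 0.12 and -0.31 ± 0.12 (limma adjusted p = 0.0414 and 0.0465). In Col-0 they were at -0.23 ± 0.12 and -0.30 ± 0.12 (limma adjusted p = 0.124 and 0.0577), and HTB7 was called there with the replicate block (limma adjusted p = 0.0437). Their interactions were -0.070 ± 0.16 and -0.0061 ± 0.17 (limma adjusted p = 0.827 and 0.988), where 10.1% of all probe sets were called. The calls in ozs3 ended when all arrays were set to a common median (limma adjusted p = 0.192 and 0.174) and in 8 and 6 of 12 fits that left out 1 array, with the highest adjusted p (0.191 and 0.204) without ozs3 replicate 1 at 23 °C. With 1 array left out the HTB2 difference ran from -0.457 (without ozs3 replicate 3 at 23 °C) to -0.196 and that of HTB7 from -0.374 to -0.201. HTB3, HTB8 and HTB10 were not called in either genotype. Group means lay near the dim limit for HTB7 (4.81 to 5.27), HTB8 (5.34 to 5.50) and HTB10 (4.95 to 5.15), which limits what these genes can show. H2B genes are near copies of each other, so how far a probe set reads a single member is uncertain.

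Histone H4, the partner of H3 in the core particle, is encoded by 8 listed genes, and 5 probe sets are assigned to all of them together. Their levels and cold directions differed, and which of the 8 genes each probe set reads is not known. Of these 2 were called higher in ozs3 at 23 °C, beside 3.17% of all probe sets. Probe set 251924_at was higher by 0.62 ± 0.14 (limma adjusted p = 0.0154) and 252562_s_at by 1.02 ± 0.23 (limma adjusted p = 0.018). Each call ended in 3 of 12 fits that left out 1 array, with the highest adjusted p (0.0778 and 0.0673) without ozs3 replicate 1 at 23 °C. None of the 5 was called between genotypes at 4 °C (limma), beside 14.6% of all probe sets, and 1 had an unadjusted p under 0.05. This was 261408_s_at (-0.26 ± 0.085, limma adjusted p = 0.0558), which was called with the replicate block (limma adjusted p = 0.0466). In the cold 2 of the 5 were called higher and 1 lower in Col-0, beside 20.4% and 23.5% of all probe sets, and none higher and 3 lower in ozs3, beside 24.9% and 26.2%.

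Probe set 252562_s_at was singled out after its values were seen, because its arrays at 23 °C resembled those of HTB11. Its level at 23 °C was 8.85, 8.03 and 9.001 in Col-0 and 9.71, 9.63 and 9.58 in ozs3, so Col-0 replicate 2 was the lowest array of both. At 4 °C its level was 9.23, 9.20 and 9.83 in Col-0 and 9.36, 9.92 and 9.56 in ozs3, and the genotypes overlapped. In the cold it rose in Col-0 by 0.80 ± 0.23 (limma adjusted p = 0.011, and 0.0596 without Col-0 replicate 3 at 4 °C). The rise was 0.499 without Col-0 replicate 2 at 23 °C (limma adjusted p = 0.0498). This probe set was at -0.027 ± 0.23 in ozs3 (limma adjusted p = 0.931).

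**Figure D4:**
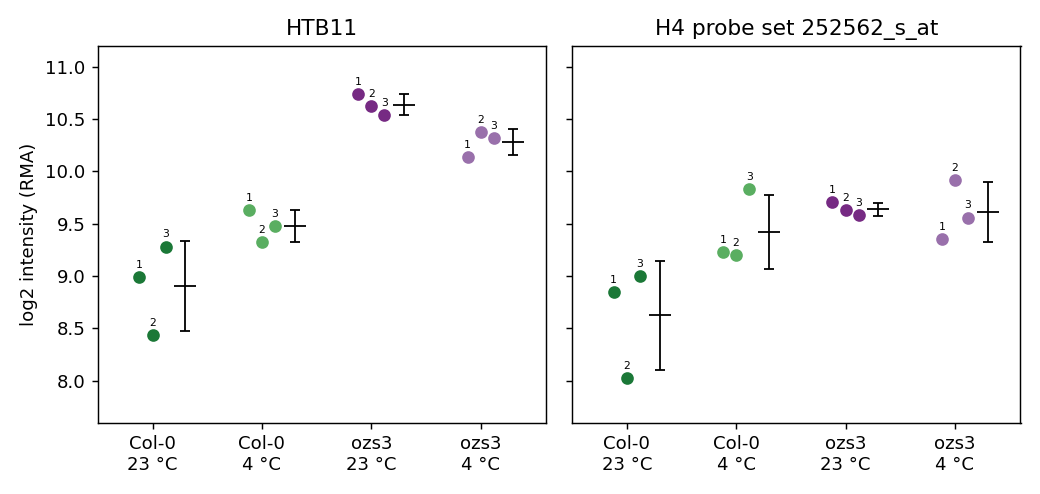
Log2 intensity of HTB11 and of the histone H4 probe set 252562_s_at in each array (points, numbered by replicate), with the mean and SD of 3 arrays (black). Replicate 2 of Col-0 at 23 °C is the lowest array of both (8.44 and 8.03), and at 4 °C the genotypes are apart for HTB11 and overlap for the H4 probe set.

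Of 14 listed H3 genes 5 had a probe set of their own, and none was called in any of the 5 contrasts (limma) or had an unadjusted p under 0.05 there. Of all probe sets 43.9% were called in the cold in Col-0 and 51.1% in ozs3. Between genotypes 6.34% were called at 23 °C and 14.6% at 4 °C, and 10.1% in the interaction. HTR6, HTR14, HTR15 and HTR10, a histone of male gametes, were dim in every group, which limits what the H3 genes can show. The centromeric histone gene HTR12 (CENH3) had group means between 5.80 and 6.07. None of the 13 listed H2A genes had a probe set of its own. Of the 15 measured histone genes other than HIS1-3 and HTB11, 1 was called lower in ozs3 at 23 °C and none higher, beside 3.17% of all probe sets in each direction. At 4 °C 2 were called higher and 1 lower, beside 6.42% and 8.2%.

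Among genes that act on free or assembled histones, ASF1B, a chaperone of H3 and H4, was higher in ozs3 at 23 °C by 0.40 ± 0.10 (limma adjusted p = 0.0299) and was at 0.25 ± 0.10 at 4 °C (limma adjusted p = 0.114, and 0.045 with the replicate block). The first call ended in 5 of 12 fits that left out 1 array (adjusted p up to 0.132, without ozs3 replicate 1 at 23 °C). ASF1B fell in the cold by 0.33 ± 0.10 in Col-0 and 0.48 ± 0.10 in ozs3 (limma adjusted p = 0.0162 and 0.0012), the first not without Col-0 replicate 1 at 23 °C (limma adjusted p = 0.056). Its paralogue ASF1A rose in ozs3 by 0.44 ± 0.11 (limma adjusted p = 0.00466) and was at 0.29 ± 0.11 in Col-0 (limma adjusted p = 0.0521, and 0.0461 with the replicate block). UBP26, a protease that removes ubiquitin from H2B, rose in the cold in Col-0 by 0.30 ± 0.090 (limma adjusted p = 0.0139). UBP26 lost its call in the fits that left out the same 3 arrays as for XTH26 (limma adjusted p = 0.0574, 0.0588 and 0.0603). Between genotypes UBP26 was at 0.25 ± 0.090 at 23 °C (limma adjusted p = 0.121). They were 2 of 13 listed chaperone genes and 1 of 6 genes of H2B ubiquitination.

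Since core histones are made in dividing cells, a marker of such cells stands beside HTB11. Of 19 genes of DNA replication and cell division 1, MCM7 of the replicative helicase, had a probe set of its own. Between genotypes it was at 0.16 ± 0.16 at 23 °C (limma adjusted p = 0.639) and -0.015 ± 0.16 at 4 °C (limma adjusted p = 0.964). The part of dividing cells in the HTB11 difference was not tested.

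The genes most like HTB11 over the 12 arrays were AT5G51630 (r = 0.949), AT5G51620 (r = 0.94), AT5G43030 (r = 0.92), APS4 (r = 0.917), which encodes an ATP sulfurylase of sulfate assimilation, and AT1G11280 (r = 0.916). Such likeness was rarer than for HIS1-3, with 10 of 1670 genes (0.599%) above r of 0.9. The first 2 carry adjoining locus numbers. Chosen for resembling HTB11, these genes had differences of ozs3 minus Col-0 between 1.37 (AT1G11280) and 1.63 (AT5G51620) at 23 °C. At 4 °C the differences were 0.96 for APS4, 0.71 for AT5G51630, 0.69 for AT5G51620, 0.46 for AT1G11280 and 0.19 for AT5G43030. APS4 thus kept the largest of these gaps in the cold and AT5G43030 the smallest.

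Chromosomal neighbours show whether the genotype difference of HTB11 covered a stretch of genes. Probe sets assigned to several genes, such as those of histone H4, were left out of the neighbour counts. Of the 50 nearest named genes 6 (12%) were called at 23 °C, 5 higher in ozs3 and 1 lower, beside 6.34% of all probe sets. With the replicate block 12 (24.0%) were called there, beside 9.91%. At 4 °C 12 (24.0%) were called, 7 higher and 5 lower, beside 14.6%. The median difference was 0.042 at 23 °C and 0.044 at 4 °C. The nearest measured genes on either side, named for their place, were AT3G46020 at 0.28 ± 0.10 (limma adjusted p = 0.138) and AT3G46070 at -0.13 ± 0.12 (limma adjusted p = 0.627) at 23 °C, where both were dim. At 4 °C AT3G46020 was dim in both genotypes and was at 0.035 ± 0.10 (limma adjusted p = 0.871). AT3G46070 was higher in ozs3 by 0.53 ± 0.12 at 4 °C (limma adjusted p = 0.011). Its means there were near the dim limit, 4.57 in Col-0 and 5.11 in ozs3.

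**Figure D5:**
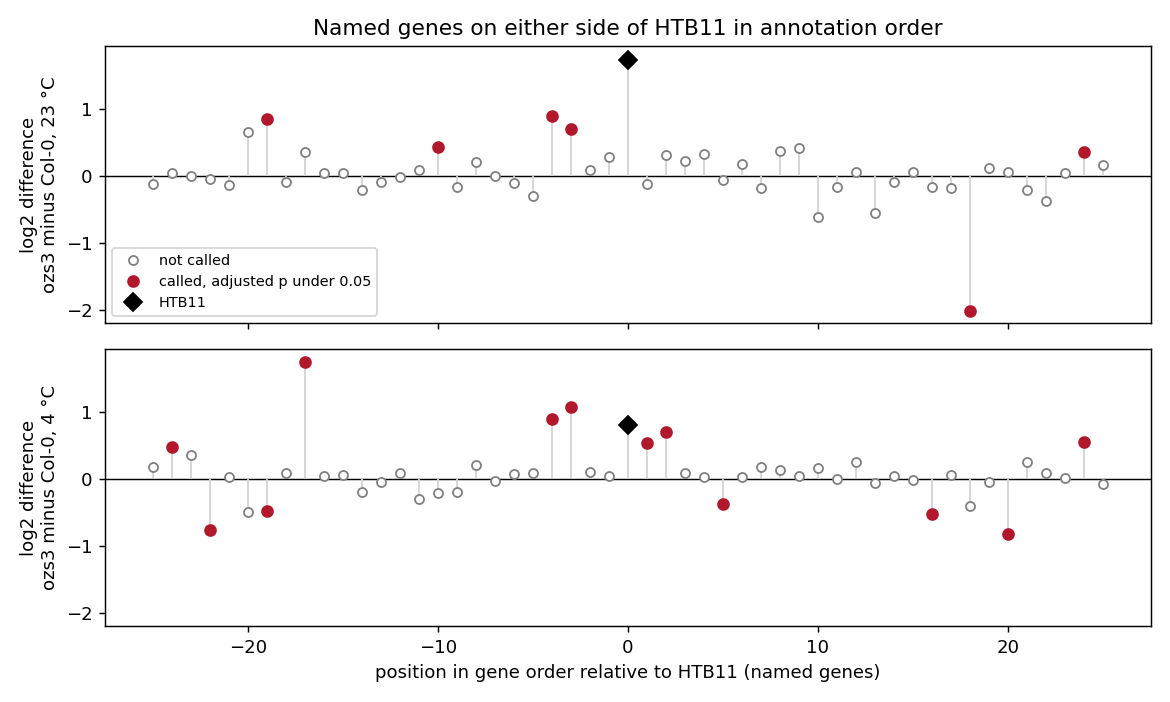
Log2 difference of ozs3 minus Col-0 at 23 °C and at 4 °C for HTB11 and the 25 named genes on each side of it, in annotation order. Called genes lie among uncalled ones and in both directions, with EXLA3 and EXLA1 higher at both temperatures and AT3G46480 lowest at 23 °C (-2.01).

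The 4 neighbours with the smallest adjusted p at 23 °C differed in direction and in what they did at 4 °C. EXLA1 and EXLA3, expansin-like genes that lie 3 and 4 named genes before HTB11, were higher in ozs3 by 0.70 ± 0.14 and 0.89 ± 0.21 at 23 °C (limma adjusted p = 0.00826 and 0.0206). The EXLA3 call ended without Col-0 replicate 2 at 23 °C (limma adjusted p = 0.0903). At 4 °C they were higher by 1.07 ± 0.14 and 0.89 ± 0.21 (limma adjusted p = 0.000271 and 0.0104). AT3G45710 was higher in ozs3 by 0.84 ± 0.14 at 23 °C (limma adjusted p = 0.0037) and at -0.48 ± 0.14 at 4 °C (limma adjusted p = 0.0384), the latter call ending in 7 of 12 fits that left out 1 array (adjusted p up to 0.123). AT3G46480 was lower in ozs3 at 23 °C, at -2.01 ± 0.14 (limma adjusted p = 2.98e-06), and at -0.40 ± 0.14 at 4 °C (limma adjusted p = 0.0666, and 0.0352 with the replicate block).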

How the data were processed

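Biotin-labelled cRNA from 100 ng of root RNA was hybridised to 12 ATH1 arrays, per the labels' protocols. The authors deposited log2 values made with RMA, per the submitters' processing notes; that they are log2 was read from their range (2.91 to 15.0) and medians (6.99 to 7.20), and no RMA version was found. The number of arrays limits the precision.

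After 64 Affymetrix controls were dropped from 22810 probe sets, the platform's probe table gave 1 gene for 13513, several for 503 and none for 8730. A TAIR10.1 gene table matched 13436 of the 13513 probe sets of a single gene, and its start positions gave the gene order. The probe set with the highest mean stood for a gene.

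One limma model (version 3.58.1, R 4.3.3) of the 4 group means, with 8 residual and 5.42 prior degrees of freedom, gave 5 contrasts, each adjusted on its own; it was tested on simulated data. Of the 2 genes' own values only HIS1-3 between genotypes at 23 °C is given with a p-value, although its values were known too. The planned tests of HIS1-3 at 4 °C, its interaction and HTB11 at 4 °C rest on values known when the genes were chosen and are left out. Equal replicate numbers were taken as pairs where each correlation of their deviations from group means exceeded 0.1: genotype at 23 °C (0.294 to 0.473), genotype at 4 °C (0.198 to 0.353) and cold in Col-0 (0.195 to 0.273), but not cold in ozs3 (0.0809 to 0.32). The labels give only the shared numbers.

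Named are both genes, the measured histone genes, up to 4 genes of each other list per contrast, the 5 genes most like each, and up to 4 neighbours by adjusted p at 23 °C. The members, 11 lists (131 genes, 31 measured) and tests were chosen with earlier results of these data known, and 19 chromatin genes were added once the annotation had been read. Alternatives were other scalings, variance priors, array sets and weights, no dim probe sets, a replicate block, and each array left out.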

Additional observations from a re-analysis of the deposited data

Results flagged for a closer look

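For HTB11 all cold arrays lay above all control arrays in Col-0, as for 24.6% of probe sets, and below them in ozs3, as for 28.5%. The interaction was -0.93. This opposite direction was not tested, since the 23 °C arrays picked the gene. Of the 48 other measured genes, listed or added, 4 (8.33%) were called in the limma interaction test, beside 10.1% of all probe sets. H1.2 fell less in ozs3 (0.37 ± 0.11, limma adjusted p = 0.0469), and this call ended whichever of the 12 arrays was left out (adjusted p from 0.0505 to 0.0956). LEA4-5 rose more in ozs3 (1.01 ± 0.30, limma adjusted p = 0.0458), a call that ended in 9 of 12 such fits (adjusted p up to 0.109). 3xHMG-box1, whose protein binds mitotic chromosomes, fell by 1.21 ± 0.11 in ozs3 and was at -0.18 ± 0.11 in Col-0 (interaction -1.02, limma adjusted p = 0.00217, and from 0.00217 to 0.00764 with 1 array left out). CHR18, a remodelling ATPase gene, fell by 0.59 ± 0.091 in ozs3 and was at -0.12 ± 0.091 in Col-0 (interaction -0.469, limma adjusted p = 0.0349), a call that ended in 8 of 12 such fits (adjusted p up to 0.0817).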

How the results depend on the processing

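HIS1-3 at 23 °C (ozs3 minus Col-0) crossed the threshold under repeated quantile normalization (-0.996, limma adjusted p = 0.0464), a common median (-0.983, 0.0439), an intensity trend (-0.957, 0.0415), the replicate block (-0.957, 0.0094) and without dim probe sets (-0.957, 0.0462), and ran from -1.23 to -0.648 with 1 array left out. These p-values of HIS1-3 are not independent of the choice of the gene. The settings reuse the same arrays, so they give no separate support. HTB11 in the cold in ozs3 was at -0.225 with a common median. The 1442 probe sets called at 23 °C became 2323 with array weights, 2253 with the replicate block and 767 to 1551 with 1 array left out, lowest without ozs3 replicate 2 (767) or 1 (783) or Col-0 replicate 2 (919) or 3 (954) at 23 °C. The 2300 interaction calls became 1439 to 2279, lowest without ozs3 replicate 1 (1439) or 2 (1457) at 23 °C. Interaction calls among histone genes went from 2 to 1 with quantile normalization and ran from 0 to 2 with 1 array left out. Among the 14 measured genes of other lists, 2 calls at 23 °C became 1 with a robust prior or only the arrays compared and 0 to 2 with 1 array left out; 2 at 4 °C became 4 with a common median or the block and 1 to 4; 1 interaction call became 0 with quantile normalization or a robust prior, 2 with array weights, 5 with the block and 0 to 2; and 8 in the cold in Col-0 became 5 to 9, with 5 without Col-0 replicate 1 at 23 °C. The causes were not tested. With the block no call of the 48 other measured genes, the H4 probe sets, the most similar genes or the neighbours was lost and many were gained. Among the 48 the interaction calls rose from 4 to 10 (limma), gaining LTI30, XTH26, PYK10, EXPA7, CHR23 and INO80, the calls at 4 °C from 7 to 9 (ASF1B and EXPA7) and those in the cold in Col-0 from 21 to 25 (ASF1A, HTB7, PYK10 and ETL1). Numbers did not pair arrays for the cold in ozs3, where calls rose from 24 to 26 (HDA15 and EXPA7). The share of all probe sets called with the block is given only for genotype at 23 °C (9.91%). Whether the gains with the block in the other contrasts exceeded the general gain in calls is therefore not shown, here or for the 14 genes above. Other settings ended the interaction calls of H1.2 (quantile normalization), LEA4-5 (quantile normalization or robust prior) and CHR18 (common median or intensity trend), the 23 °C calls of EXLA3 (only the arrays compared) and INO80 (only the arrays compared or array weights), the 4 °C call of AT3G45710 (common median), and the cold calls in ozs3 of HTB2 (only the arrays compared) and HTB7 (intensity trend). A common median moved the median of all probe sets in the cold in ozs3 from 0.046 to 0.18 and the share of calls that were higher from 48.8% to 66.1%; that share went from 43.9% to 60.7% for genotype at 4 °C and from 42.5% to 64.0% for the interaction. No value changed sign past the threshold. Dim signal limits HIS1-3 at 4 °C, and 3 arrays a group limit every test.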

Other observations

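A further 19 chromatin genes were listed once the annotation had been read. In the cold in Col-0 5 were called lower and 3 higher, and in ozs3 9 lower and 1 higher, beside 23.5% and 26.2% of all probe sets called lower and 20.4% and 24.9% called higher. INO80, the ATPase of a nucleosome remodelling complex, fell by 1.19 ± 0.094 in Col-0 and 0.76 ± 0.094 in ozs3 (limma adjusted p = 2.78e-07 and 1.25e-05). CHC1, a subunit of SWI/SNF complexes, fell by 0.81 ± 0.094 and 0.84 ± 0.094 (limma adjusted p = 8.22e-06 and 4.54e-06), and the SWI/SNF ATPase gene CHR23 by 0.52 ± 0.13 and 1.12 ± 0.13 (limma adjusted p = 0.00436 and 6.26e-06), ending dim. The histone deacetylase gene HDA15 fell in Col-0 by 0.40 ± 0.090 (limma adjusted p = 0.00246) and was at -0.20 ± 0.090 in ozs3 (limma adjusted p = 0.0849). CHB3 rose by 0.38 ± 0.081 and 0.30 ± 0.081 (limma adjusted p = 0.0014 and 0.00703).

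Between genotypes 1 of these 19 genes was called higher and 1 lower at 23 °C, beside 3.17% of all probe sets in each direction. At 4 °C 2 were called lower, beside 8.2%, and none higher. At 23 °C 3xHMG-box1 was higher in ozs3 by 0.46 ± 0.11 (limma adjusted p = 0.0302, up to 0.124 with 1 array left out) and INO80 was lower, at -0.35 ± 0.094 (limma adjusted p = 0.0423, up to 0.158). At 4 °C 3xHMG-box1 was lower in ozs3, at -0.57 ± 0.11 (limma adjusted p = 0.00473), as was CHR18, at -0.55 ± 0.091 (limma adjusted p = 0.00136).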
